A study of Mus musculus with 6 samples.

Results

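The respiratory chain and ATP synthase genes comprised 108 of the 32285 genes in the count tables. They were taken by symbol: every gene beginning Nduf, Uqcr, Cox4 to Cox8 or Atp5, the genes Sdha, Sdhb, Sdhc, Sdhd, Cyc1 and Cycs, and the 13 protein-coding genes of the mitochondrial genome, with pseudogene symbols ending in -ps left out. Of the 95 nuclear genes, 36 encode subunits of complex I, 8 assembly factors of complex I, 4 complex II, 9 complex III, 20 complex IV and 17 complex V (ATP synthase), and 1 encodes cytochrome c. The 13 mitochondrial genes encode 7 subunits of complex I, 1 of complex III, 3 of complex IV and 2 of complex V. All 108 were found in the mm10 gene annotation, with the nuclear genes spread over 19 chromosomes.

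The series measured single-cell RNA (10x Genomics, 3′ ends, UMI counts) in bone marrow cells enriched for c-Kit from BALB/c mice aged 10 weeks. The 9 animals were in 3 pools, and each pool held 1 non-tumor-bearing mouse (NTB), 1 mouse bearing the 4T1 mammary carcinoma and given vehicle (Veh) and 1 4T1-bearing mouse given brequinar (BRQ) at 10 mg/kg for 2 weeks, each marked with its own hashtag antibody. No NTB mouse received vehicle or BRQ, so the tumor and the vehicle cannot be told apart in any comparison with NTB. Mice are called NTB 1 to 3, Veh 1 to 3 and BRQ 1 to 3, the number being the pool.

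The respiratory chain passes electrons from NADH (complex I) and succinate (complex II) to ubiquinone, then through complex III and cytochrome c to oxygen at complex IV, and complex V makes ATP from the proton gradient so built. BRQ inhibits DHODH, the enzyme of pyrimidine synthesis in the inner mitochondrial membrane that hands its electrons to ubiquinone and so feeds complex III. Granulocyte-monocyte progenitors (GMPs) are the precursors of neutrophils and monocytes, and neutrophils hold few mitochondria.

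Promoters of 5 nuclear genes are printed as the genes that the results turn on: Cycs, Ndufaf4, Atp5g1 and Atp5g3 were higher in Veh-GMPs than in NTB-GMPs and Cox6b2 was lower. Each runs 5′ to 3′ from 250 bases before to 50 bases after the RefSeq start site (GRCm38.p6), and capitals mark exact matches on either strand to the letters of NRF1 (GCATGCGC), CRE (TGACGTCA), ETS (CCGGAAGT) or YY1 (AAGATGGC) motifs, factors associated with respiratory gene promoters. The windows are chr6:50566520-50566819 on the minus strand for Cycs, chr4:24897833-24898132 on the plus strand for Ndufaf4, and on the minus strand chr11:96075582-96075881 for Atp5g1, chr2:73911277-73911576 for Atp5g3 and chr7:4753045-4753344 for Cox6b2.
Cycs: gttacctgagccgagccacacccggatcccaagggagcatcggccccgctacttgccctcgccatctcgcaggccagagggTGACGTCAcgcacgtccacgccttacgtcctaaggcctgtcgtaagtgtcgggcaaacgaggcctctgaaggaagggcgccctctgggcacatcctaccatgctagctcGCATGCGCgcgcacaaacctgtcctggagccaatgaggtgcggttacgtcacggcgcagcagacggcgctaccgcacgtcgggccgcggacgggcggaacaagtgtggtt
Ndufaf4: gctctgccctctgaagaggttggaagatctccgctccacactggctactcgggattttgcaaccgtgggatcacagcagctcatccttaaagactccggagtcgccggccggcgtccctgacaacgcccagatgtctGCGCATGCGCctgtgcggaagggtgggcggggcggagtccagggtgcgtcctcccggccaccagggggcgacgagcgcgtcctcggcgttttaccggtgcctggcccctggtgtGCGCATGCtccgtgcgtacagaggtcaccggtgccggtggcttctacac
Atp5g1: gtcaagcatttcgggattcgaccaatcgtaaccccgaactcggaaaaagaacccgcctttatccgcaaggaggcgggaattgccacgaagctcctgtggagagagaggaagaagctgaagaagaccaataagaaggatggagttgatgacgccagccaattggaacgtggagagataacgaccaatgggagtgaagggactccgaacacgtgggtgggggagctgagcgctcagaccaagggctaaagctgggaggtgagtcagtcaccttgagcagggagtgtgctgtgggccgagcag
Atp5g3: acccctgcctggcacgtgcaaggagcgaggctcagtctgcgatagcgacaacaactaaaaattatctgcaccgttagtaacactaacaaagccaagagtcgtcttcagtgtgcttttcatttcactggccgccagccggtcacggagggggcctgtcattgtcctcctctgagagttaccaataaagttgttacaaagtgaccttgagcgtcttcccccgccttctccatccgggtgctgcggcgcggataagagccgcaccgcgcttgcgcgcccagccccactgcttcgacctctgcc
Cox6b2: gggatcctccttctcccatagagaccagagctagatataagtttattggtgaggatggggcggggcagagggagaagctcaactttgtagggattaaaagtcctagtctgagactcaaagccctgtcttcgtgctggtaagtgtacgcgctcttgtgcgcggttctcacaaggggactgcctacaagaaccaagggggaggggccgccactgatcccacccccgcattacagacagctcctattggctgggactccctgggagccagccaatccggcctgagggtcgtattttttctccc

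In Cycs the NRF1 letters start 60 bases before the start site and the CRE letters 169 before. Ndufaf4 holds the NRF1 letters at 113 and 111 bases before its start, overlapping each other, and 2 after it. The Atp5g1, Atp5g3 and Cox6b2 windows hold none of the 4 sets of letters. Of the 95 nuclear genes, 76 had a promoter in the RefSeq table, with 81 promoters in all, and 13 of the 81 (16.0%) held the NRF1 letters against 2.71% of 32851 promoters of all genes. The YY1 letters stood in 12.3% of the member promoters and 2.75% of all, the CRE letters in 6.17% and 1.79%, and the ETS letters in 6.17% and 3.89%. Counted over genes tested in GMPs, 13 of 74 member genes (17.6%) and 6.84% of 8178 genes of any kind had the NRF1 letters in a promoter. On that count the YY1 letters stood at 13.5% and 6.09% and the CRE letters at 6.76% and 3.8%. The ETS letters reversed their order there, at 6.76% of member genes and 10.7% of genes of any kind. Of the members that rose in Veh-GMPs against NTB-GMPs, 15 had a promoter in the table, and 5 of those held the NRF1 letters. A match describes the sequence only, not binding.

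The 3 pools held 13750, 11441 and 14297 barcodes with median UMI counts from 7445 to 7996.5, and 127 of 39360 barcode sequences occurred in more than 1 pool. Hashtag separation was weak, and the leading tag exceeded the next by a median ratio of only 2.04 to 2.6. HTODemux called 32.8% to 52.2% of all barcodes negative and 6.21% to 17.7% doublets, before the limits on cells were applied. Within those limits 15996 cells were assigned in all. GMPs were defined by the study's limit of 3 on the GMP marker Ms4a3, read here as the natural log of 1 plus its UMIs per 10000, a scale that may not be the study's own. They numbered 3922, with 88, 135 and 174 cells in NTB mice, 1017, 95 and 282 in Veh mice and 806, 656 and 669 in BRQ mice, and 92.6% of them lay in clusters named GMP-like from marker genes. The other classes were named from marker genes of Leiden clusters and are called "-like" at first mention. The marrow preparation was not pure progenitors, since 3966 assigned cells lay in neutrophil-like clusters.

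The chain's genes took a large and class-dependent share of each cell's UMIs. In the median mouse the 95 nuclear genes made up 3.57% of all UMIs in GMPs, 3.36% in monocyte/macrophage-dendritic progenitor (MDP)-like cells, 2.98% in erythroid/megakaryocyte-erythroid progenitor (MEP)-like cells, 2.44% in hematopoietic stem cell/multipotent progenitor (HSC/MPP)-like cells and 1.64% in neutrophil-like cells. Neutrophil-like cells lay at 1.38% to 1.90% over the 9 mice, below every value of the other 5 classes in the plot of shares, while the ranges of GMPs, monocyte/MDP-like cells (2.86% to 3.63%) and erythroid/MEP-like cells (2.74% to 3.32% in 6 mice) overlapped. Smaller classes reached into the neutrophil range or below it, with macrophage-like cells at 1.79% to 2.23% in the 3 mice that had 20 such cells and B cell-like cells at 1.19% in the 1 mouse that did. The mitochondrial genes gave another order, with 2.17% in neutrophil-like cells, 3.39% in GMPs, 3.49% in monocyte/MDP-like cells, 3.56% in HSC/MPP-like cells, 3.97% in erythroid/MEP-like cells and 5.46% in macrophage-like cells, in the same 3 mice. These cells had been limited to at most 15% mitochondrial UMIs, which bounds the mitochondrial shares.

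**Figure D1:**
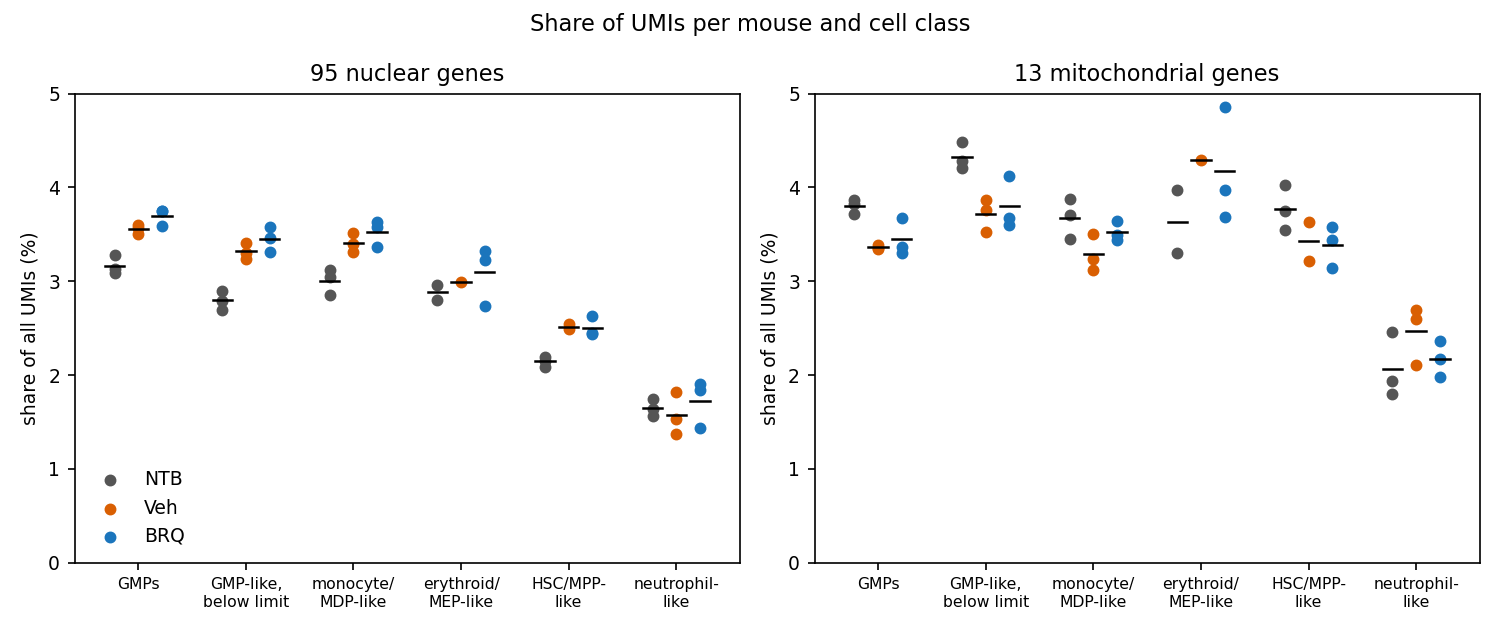
Share of all UMIs (%) taken by the 95 nuclear genes (left) and the 13 mitochondrial genes (right) in 6 cell classes, with a dot for each mouse colored by group and a bar at each group's mean. Of these 6 classes neutrophil-like cells sit lowest in both panels, and in GMPs, monocyte/MDP-like and HSC/MPP-like cells the NTB dots lie lowest in the left panel.

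Within GMPs the nuclear share was higher and the mitochondrial share lower in tumor-bearing mice, given here as values with no test. The nuclear genes took 3.28%, 3.13% and 3.08% of UMIs in NTB-GMPs, 3.50%, 3.59% and 3.57% in Veh-GMPs and 3.74%, 3.59% and 3.74% in BRQ-GMPs. The mitochondrial genes took 3.87%, 3.71% and 3.83% in NTB-GMPs, 3.35%, 3.39% and 3.35% in Veh-GMPs and 3.67%, 3.31% and 3.36% in BRQ-GMPs. No NTB mouse overlapped with a tumor-bearing mouse in either share, and Veh and BRQ mice overlapped in both. Mitochondrial UMIs per nuclear UMI were accordingly 1.18, 1.19 and 1.24 in NTB-GMPs, 0.956, 0.942 and 0.939 in Veh-GMPs and 0.981, 0.921 and 0.898 in BRQ-GMPs.

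Single genes were compared between mice on summed UMI counts with edgeR's quasi-likelihood test and TMM scaling, and a gene was called at a Benjamini-Hochberg adjusted p under 0.05 over all genes tested. Of the 108 members, 102 passed the filter on low counts in GMPs, 89 nuclear and all 13 mitochondrial. Cox7b2, Cox8b and Cox8c had no UMI in any assigned cell, and Ndufa4l2, Cox6a2 and Cox4i2 had 6, 207 and 253 UMIs over all assigned cells. Values per mouse are TMM-scaled counts per 1000000 UMIs (CPM). Since the libraries count 3′ ends, CPM of different genes are not levels per length.

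In Veh-GMPs against NTB-GMPs, 18 of 89 nuclear members rose and 1 fell. Among all 10305 genes tested, 6.89% were called higher and 4.78% lower. The median nuclear member had a log2 fold change of 0.20, against -0.01 over all genes tested, and 78 of the 89 lay above 0. Every Veh mouse exceeded every NTB mouse for 37 of the 89, where 15.3% of all genes tested did so. With the pool as a replicate block, 39 members rose and 6 fell, where 9.69% and 6.86% of all genes did. A limit of 2.5 on Ms4a3 in place of 3 (7007 cells) gave 37 calls, and all cells of GMP-like clusters (6954 cells) gave 57, against 3922 cells in the main fit. The share of all genes called is not given for either fit, so these counts cannot be read against it. The 19 calls became 29 without NTB 1, 12 without NTB 2 or Veh 1 and 10 without NTB 3. None of the 13 mitochondrial members was called by edgeR in this comparison, 2 had an unadjusted p under 0.05, DESeq2 called 1, 12 of 13 lay below 0, and their median was -0.19. The raised nuclear members came from every complex, with 3 of 36 complex I subunits, 3 of 8 complex I assembly factors, 1 of 4 complex II genes, 3 of 9 complex III genes, 1 of 14 tested complex IV genes, 6 of 17 ATP synthase genes and Cycs.

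**Figure D2:**
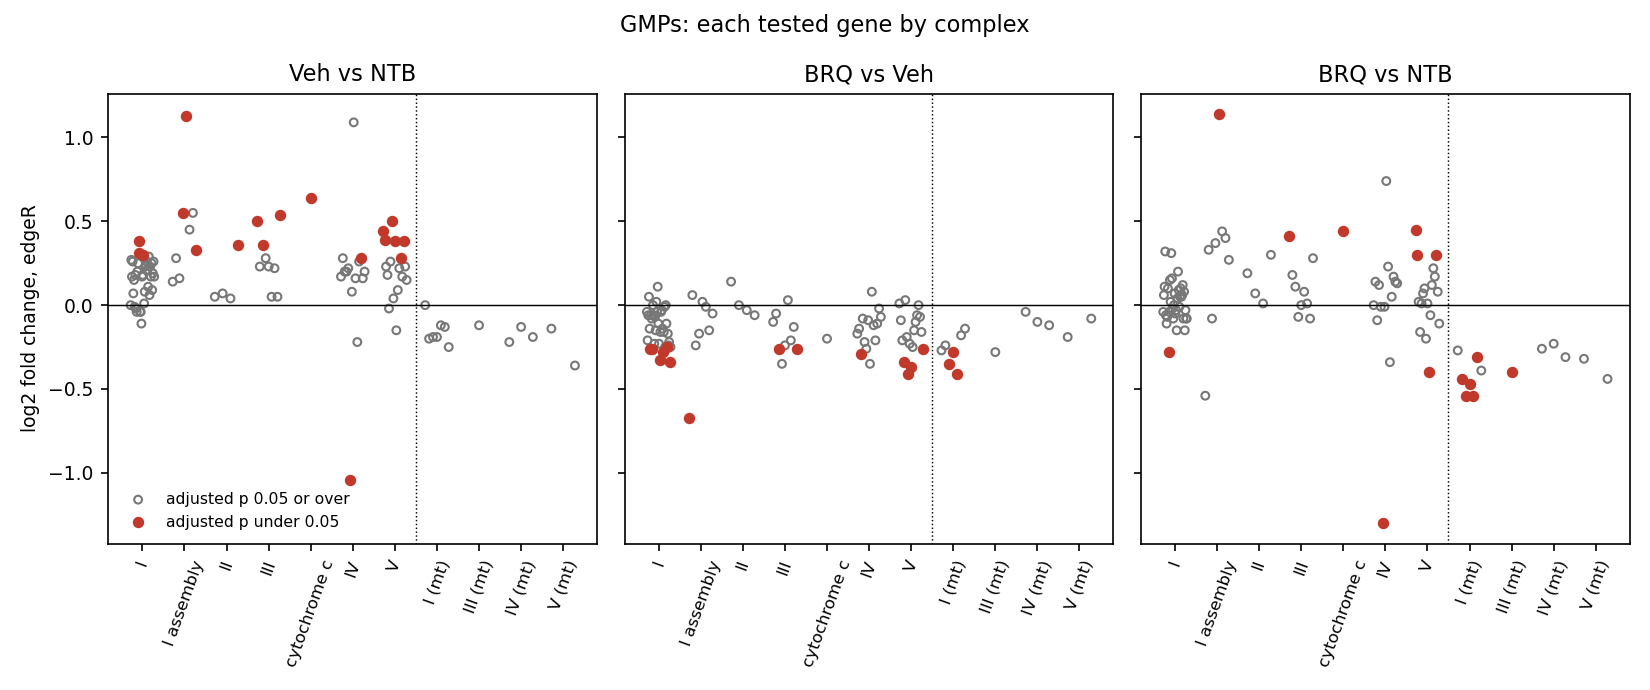
Log2 fold change in GMPs for each tested member, grouped by complex along the horizontal axis, in 3 comparisons, with red dots for an adjusted p under 0.05. In Veh against NTB 18 nuclear dots are red above 0 and 1 below, and in BRQ against Veh the 14 red nuclear dots all lie below 0.

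Cycs encodes cytochrome c, the carrier between complexes III and IV. It stood at 361.5, 300.9 and 344.4 CPM in NTB-GMPs, 532.8, 513.4 and 514.0 in Veh-GMPs and 454.7, 428.3 and 478.2 in BRQ-GMPs. The 3 groups did not overlap, with Veh highest, BRQ between and NTB lowest. The log2 fold change was 0.64 ± 0.09 (SE) for Veh against NTB (edgeR quasi-likelihood, adjusted p = 6.2e-05) and 0.44 ± 0.09 for BRQ against NTB (adjusted p = 0.00392). The latter call was lost without NTB 2 (adjusted p = 0.0562). BRQ against Veh gave -0.20 ± 0.08, not called in the edgeR fit (adjusted p = 0.13) and called with the pool as a block (adjusted p = 0.024). Cycs has pseudogene copies in the annotation, as do Atp5c1, Uqcrh, Atp5k, Ndufab1 and Atp5l, and reads shared with a copy could have been lost or split.

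Complex III, which oxidizes ubiquinol, had 3 raised genes. The small subunit gene Uqcrq read 505.3, 559.8 and 513.8 CPM in NTB-GMPs, 742.6, 783.5 and 769.5 in Veh-GMPs and 635.6, 614.2 and 669.0 in BRQ-GMPs. BRQ mice again lay between the other groups with no overlap. Uqcrq rose in Veh-GMPs against NTB-GMPs by 0.54 ± 0.09 (edgeR adjusted p = 0.000266) and was lower in BRQ-GMPs than in Veh-GMPs by -0.26 ± 0.08 (adjusted p = 0.0385). Cyc1, the cytochrome c1 of the complex, gave 140.5, 117.2 and 126.8 CPM in NTB-GMPs, 181.4, 184.9 and 175.5 in Veh-GMPs and 168.4, 153.5 and 183.6 in BRQ-GMPs. Here both tumor-bearing groups lay above NTB and overlapped with each other (0.50 ± 0.10 and 0.41 ± 0.10 against NTB, edgeR adjusted p = 0.0016 and 0.0113), and the BRQ call was lost without NTB 2 or NTB 3 (adjusted p = 0.105 and 0.0602). Uqcr11 rose in Veh against NTB by 0.36 ± 0.08 and fell with BRQ against Veh by 0.26 (edgeR adjusted p = 0.00591 and 0.033).

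ATP synthase had 6 raised genes. Atp5g1 and Atp5g3 encode the same mature c subunit of the membrane ring with different import sequences. Atp5g1 stood at 585.9, 602.5 and 548.0 CPM in NTB-GMPs, 852.8, 826.1 and 779.2 in Veh-GMPs and 650.0, 626.7 and 576.8 in BRQ-GMPs. All Veh mice were above all others, and BRQ mice overlapped with NTB mice. The log2 fold change was 0.50 ± 0.09 for Veh against NTB and -0.41 ± 0.08 for BRQ against Veh (edgeR adjusted p = 0.000609 and 0.00217). Atp5g3 had the same order of groups, with 351.7, 342.9 and 349.8 CPM in NTB-GMPs, 452.8, 463.8 and 446.5 in Veh-GMPs and 350.9, 334.1 and 366.4 in BRQ-GMPs. Its log2 fold change was 0.38 ± 0.08 for Veh against NTB and -0.37 ± 0.08 for BRQ against Veh (edgeR adjusted p = 0.00369 and 0.00231). The other c-subunit gene, Atp5g2, was not called in any of the 3 comparisons.

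The other ATP synthase genes that rose included Atp5a1, Atp5b and Atp5md, whose difference in course from the c-subunit genes was not tested. Atp5a1, the alpha subunit of the catalytic head, had 361.5, 387.4 and 368.1 CPM in NTB-GMPs, 481.3, 530.3 and 507.1 in Veh-GMPs and 502.3, 492.2 and 529.4 in BRQ-GMPs. Veh and BRQ overlapped and both lay above NTB, with log2 fold changes of 0.44 ± 0.08 and 0.45 ± 0.08 against NTB (edgeR adjusted p = 0.00163 and 0.00259) and 0.01 between them. Atp5b, the beta subunit of the head, was raised by 0.39 ± 0.08 in Veh-GMPs and 0.30 in BRQ-GMPs (edgeR adjusted p = 0.00363 and 0.033). Atp5md, a small membrane subunit, gave 0.38 and 0.30 (adjusted p = 0.00593 and 0.0342). The BRQ calls of Atp5b and Atp5md were lost without BRQ 1, BRQ 3, any of the NTB mice or Veh 2 (adjusted p = 0.0515 to 0.148).

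For complex I, 3 of 8 assembly factors and 3 of 36 subunit genes rose. Ndufaf5 is a low gene at 3.27, 5.64 and 4.95 CPM in NTB-GMPs, 10.3, 8.78 and 11.9 in Veh-GMPs and 10.8, 9.0 and 12.2 in BRQ-GMPs. Both tumor-bearing groups lay above every NTB mouse (1.13 ± 0.30 and 1.14 ± 0.28 against NTB, edgeR adjusted p = 0.0146 and 0.017), but the Veh call was lost without NTB 3 (adjusted p = 0.0956) and the BRQ call without any of the NTB mice (0.0596 to 0.0961). Ndufaf4 stood at 40.3, 41.4 and 39.1 CPM in NTB-GMPs and 64.6, 46.4 and 57.7 in Veh-GMPs, with no overlap (0.55 ± 0.15, edgeR adjusted p = 0.0182), and its call was lost without NTB 2, NTB 3 or Veh 1 (adjusted p = 0.063, 0.124 and 0.135). The subunit genes Ndufab1, Ndufb10 and Ndufb6 and the assembly factor Ndufaf8 rose by 0.30 to 0.38. In complex II only Sdhd, a membrane anchor of succinate dehydrogenase, was called, at 86.0, 121.0 and 103.1 CPM in NTB-GMPs and 139.8, 147.3 and 119.1 in Veh-GMPs (0.36 ± 0.11, edgeR adjusted p = 0.0404). Veh 3 lay below NTB 2, so those groups overlapped, and the call was lost without NTB 1, NTB 3, Veh 1 or Veh 2 (adjusted p = 0.113 to 0.179). Sdha, Sdhb and Sdhc were not called.

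Cox6b2 went the other way from every other called nuclear member in Veh-GMPs. It encodes a complex IV subunit known as a testis isoform, the partner of the widely expressed Cox6b1, and lies at chr7:4751792-4753094 on the minus strand with no overlapping gene in the annotation. It read 116.5, 119.7 and 112.5 CPM in NTB-GMPs, 61.6, 48.9 and 54.1 in Veh-GMPs and 50.2, 56.4 and 35.7 in BRQ-GMPs. Both tumor-bearing groups lay far below NTB and overlapped with each other. The log2 fold change was -1.04 ± 0.14 in Veh-GMPs and -1.30 ± 0.13 in BRQ-GMPs against NTB (edgeR adjusted p = 4.3e-05 and 8e-06). BRQ against Veh gave -0.26 ± 0.12, not called (adjusted p = 0.176) but called with the pool as a block (adjusted p = 0.0225). Cox6b1, Cox4i1, Cox6a1, Cox7a2 and Cox8a, the common isoforms of their subunits, were not called, and Cox7c rose by 0.28.

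**Figure D3:**
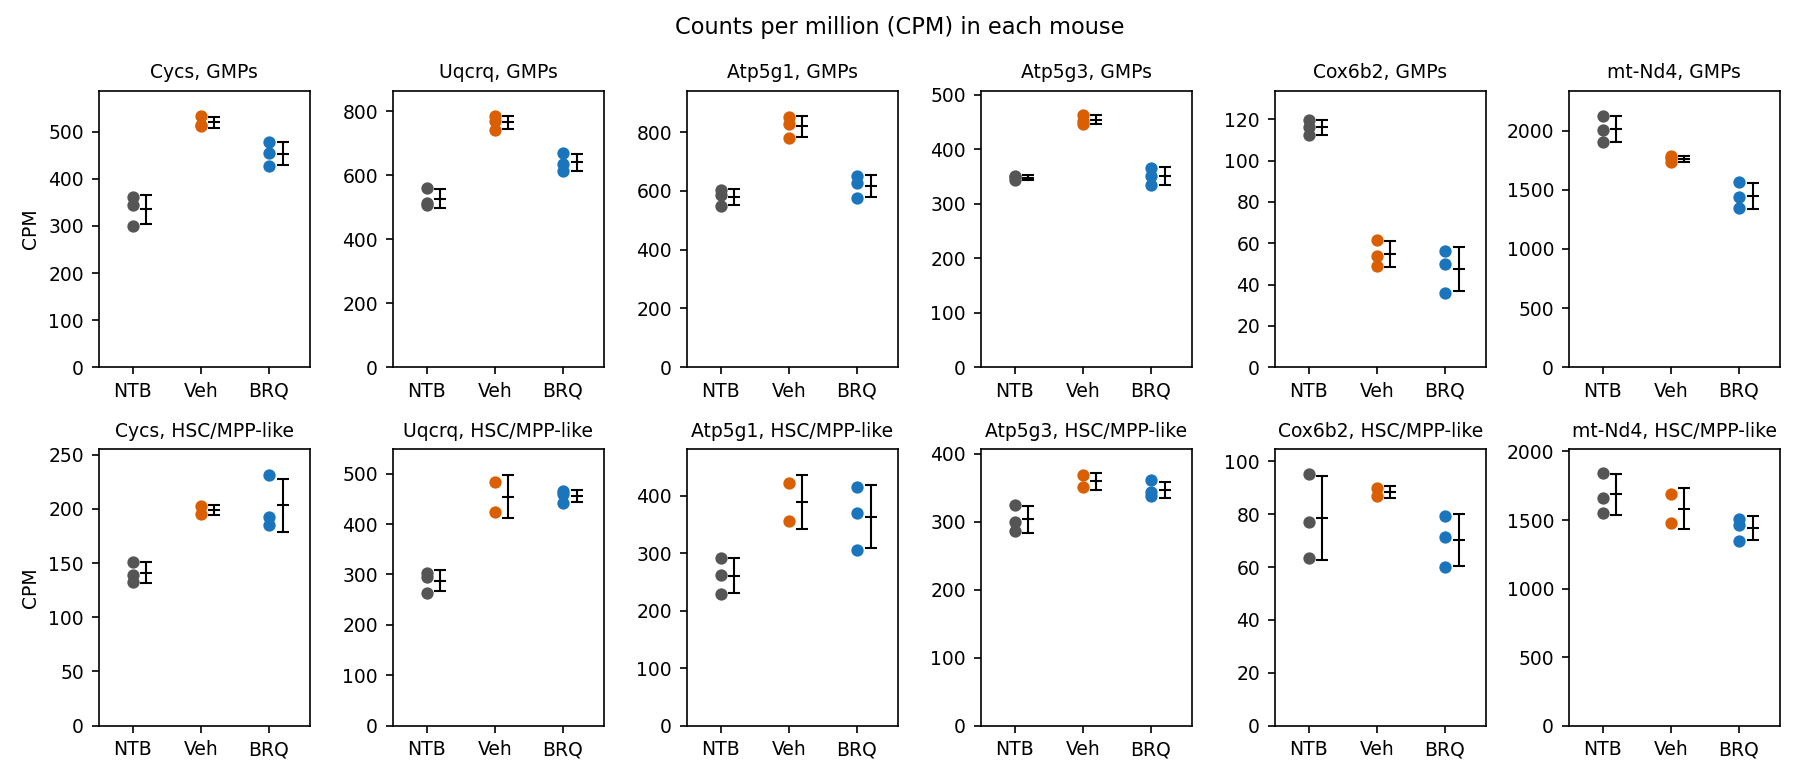
TMM-scaled CPM of Cycs, Uqcrq, Atp5g1, Atp5g3, Cox6b2 and mt-Nd4 in GMPs (top) and HSC/MPP-like cells (bottom), with a dot for each mouse and bars for the mean ± SD of each group. In GMPs Atp5g1 and Atp5g3 are highest in Veh alone and Cox6b2 is highest in NTB, while in HSC/MPP-like cells Cycs, Uqcrq and Atp5g1 are higher in both tumor-bearing groups.

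BRQ-GMPs against Veh-GMPs asked what the DHODH inhibitor changed in tumor-bearing mice. No nuclear member rose and 14 of 89 fell, where 6.09% of all genes tested were called higher and 7.46% lower. The median nuclear member stood at -0.14, 76 of 89 lay below 0, and for 40 of the 89 every BRQ mouse was below every Veh mouse, which held for 15.3% of all genes. With the pool as a block 38 members, nuclear and mitochondrial, fell and none rose, where 11.5% of all genes fell and 9.09% rose. The 17 calls, 3 of them mitochondrial, became 4 without Veh 1, 6 without Veh 2, 7 without Veh 3, 9 without BRQ 3 and 11 without BRQ 2. This direction is relative to TMM scaling. Without it the median of all genes tested moved to 0.20, that of the nuclear members to 0.05, and 5 nuclear members were called higher and 2 lower. The share of all genes called without TMM scaling is not given here. The ribosomal protein genes, which hold a large share of these UMIs, took 27.4% to 28.3% of nuclear UMIs in Veh-GMPs and 22% to 25.8% in BRQ-GMPs, and their part in the scaling was not tested.

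The members that fell with BRQ included 6 complex I subunit genes, 1 assembly factor, 2 complex III, 1 complex IV and 4 ATP synthase genes. Ndufaf1, an assembly factor of the complex I membrane arm, read 16.3, 15.1 and 11.9 CPM in NTB-GMPs, 17.2, 13.8 and 12.9 in Veh-GMPs and 11.3, 9.97 and 7.80 in BRQ-GMPs. BRQ mice lay below both other groups with no overlap (-0.67 ± 0.16 against Veh, edgeR adjusted p = 0.00642). Ndufv2, an iron-sulfur subunit of the NADH-oxidizing module, gave 139.4, 133.5 and 134.3 CPM in NTB-GMPs, 171.1, 156.7 and 155.6 in Veh-GMPs and 139.8, 128.5 and 115.8 in BRQ-GMPs. The Veh mice were highest, and BRQ overlapped with NTB (-0.34 ± 0.08 against Veh, edgeR adjusted p = 0.00788). The calls of Ndufaf1 and Ndufv2 were lost without Veh 1 (adjusted p = 0.232 and 0.0807). Ndufb6, a membrane-arm subunit, fell by 0.33 and stood at 117.0, 105.1 and 106.2 CPM in BRQ-GMPs against 137.6, 136.0 and 137.8 in Veh-GMPs (edgeR adjusted p = 0.0079). Atp5d, the delta subunit of the ATP synthase stalk, fell by 0.34 (edgeR adjusted p = 0.019), a call lost without BRQ 3, Veh 1 or Veh 2 (0.0638 to 0.0971). Cox5b, Ndufc2, Ndufa2, Ndufa6, Atp5o and Ndufs6 fell by 0.25 to 0.29.

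In BRQ-GMPs against NTB-GMPs, 6 nuclear members rose and 3 fell, where 2.57% of all genes tested rose and 3.47% fell. The comparison shares its samples with the previous ones. Ndufaf5, Atp5a1, Cycs, Cyc1, Atp5b and Atp5md were the 6 that rose, and Cox6b2, Atp5h and Ndufa6 fell. Atp5h, a stalk subunit of ATP synthase, had 951.7, 816.2 and 709.5 CPM in NTB-GMPs, 779.4, 717.1 and 720.6 in Veh-GMPs and 674.9, 667.5 and 523.9 in BRQ-GMPs. BRQ mice lay below all others and Veh overlapped with NTB (-0.40 ± 0.11 for BRQ against NTB, edgeR adjusted p = 0.0278), and the call was lost without BRQ 3, NTB 1, NTB 2 or Veh 2 (0.0519 to 0.152). The call of Ndufa6 was lost without any mouse other than BRQ 2 (0.0515 to 0.126). The 15 calls, 6 of them mitochondrial, became 5 without NTB 2 and 9 without NTB 3 or Veh 2. With the pool as a block 14 members rose and 16 fell, where 5.71% and 6.18% of all genes did. Without TMM scaling 34 nuclear members rose and 1 fell, with the median of all genes tested at 0.16. The share of all genes called in that fit is not given here, so these counts cannot be read against it.

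After TMM scaling the mitochondrial genes were lower in BRQ-GMPs than in NTB-GMPs. Against NTB all 13 lay below 0 with a median of -0.39, 6 fell, and for 10 of 13 every BRQ mouse was below every NTB mouse, which held for 12.7% of all genes tested. Against Veh all 13 lay below 0 as well, with a median of -0.19, and 3 fell. Without TMM scaling 7 of the 13 lay below 0 and 6 above against Veh, and the summed mitochondrial shares of BRQ-GMPs (3.67%, 3.31% and 3.36%) overlapped with those of Veh-GMPs (3.35%, 3.39% and 3.35%). Against NTB all 13 lay below 0 without it as well. The called genes were 5 complex I genes (mt-Nd2, mt-Nd3, mt-Nd4, mt-Nd4l and mt-Nd5) and mt-Cytb of complex III. Those of complexes IV and V were not called: mt-Co1, mt-Co2 and mt-Co3 gave -0.26, -0.23 and -0.31 against NTB, and mt-Atp6 and mt-Atp8 gave -0.32 and -0.44.

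The gene mt-Nd4, a proton-pumping subunit of complex I, read 2125.6, 1905.2 and 2003.7 CPM in NTB-GMPs, 1765.3, 1784.5 and 1731.0 in Veh-GMPs and 1564.9, 1436.2 and 1347.6 in BRQ-GMPs. The 3 groups did not overlap, in the order NTB, Veh, BRQ. BRQ against NTB gave -0.47 ± 0.09 (edgeR adjusted p = 0.00273) and BRQ against Veh -0.28 ± 0.09 (adjusted p = 0.039), while Veh against NTB gave -0.19, called only with the pool as a block (adjusted p = 0.18 without and 0.0462 with it). The gene mt-Nd3 had 261.3, 203.7 and 245.3 CPM in NTB-GMPs, 220.9, 188.7 and 203.0 in Veh-GMPs and 180.1, 157.4 and 148.1 in BRQ-GMPs. BRQ mice were lowest in it, with NTB and Veh overlapping (-0.54 ± 0.10 against NTB and -0.35 ± 0.09 against Veh, edgeR adjusted p = 0.0024 and 0.0152). The gene mt-Nd4l fell by 0.54 against NTB and 0.41 against Veh (edgeR adjusted p = 0.0149 and 0.0272), though BRQ and NTB mice overlapped at 156.6 to 200.2 and 189.5 to 295.9 CPM. It lies at chrM:9877-10173 and overlaps mt-Nd4 (chrM:10167-11544) on the same strand, and mt-Atp8 overlaps mt-Atp6, so reads there cannot be told apart fully. Against NTB the calls of mt-Nd2, mt-Nd3 and mt-Nd4 held without each mouse in turn, while that of mt-Nd4l was lost without BRQ 1, NTB 2 or NTB 3 (edgeR adjusted p = 0.0571 to 0.152), that of mt-Cytb without BRQ 2, BRQ 3, NTB 1, NTB 2, Veh 2 or Veh 3 (0.0527 to 0.167) and that of mt-Nd5 without BRQ 1, BRQ 3, any NTB mouse or Veh 2 (0.0511 to 0.137). Against Veh the call of mt-Nd4 was lost without BRQ 2, BRQ 3, NTB 2 or any Veh mouse (0.0571 to 0.119), that of mt-Nd3 without Veh 1 (0.129) and that of mt-Nd4l without BRQ 1, Veh 2 or Veh 3 (0.0825 to 0.195). Without TMM scaling 3 mitochondrial genes fell against NTB and none was called against Veh, in fits whose shares of all genes called are not given here.

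**Figure D4:**
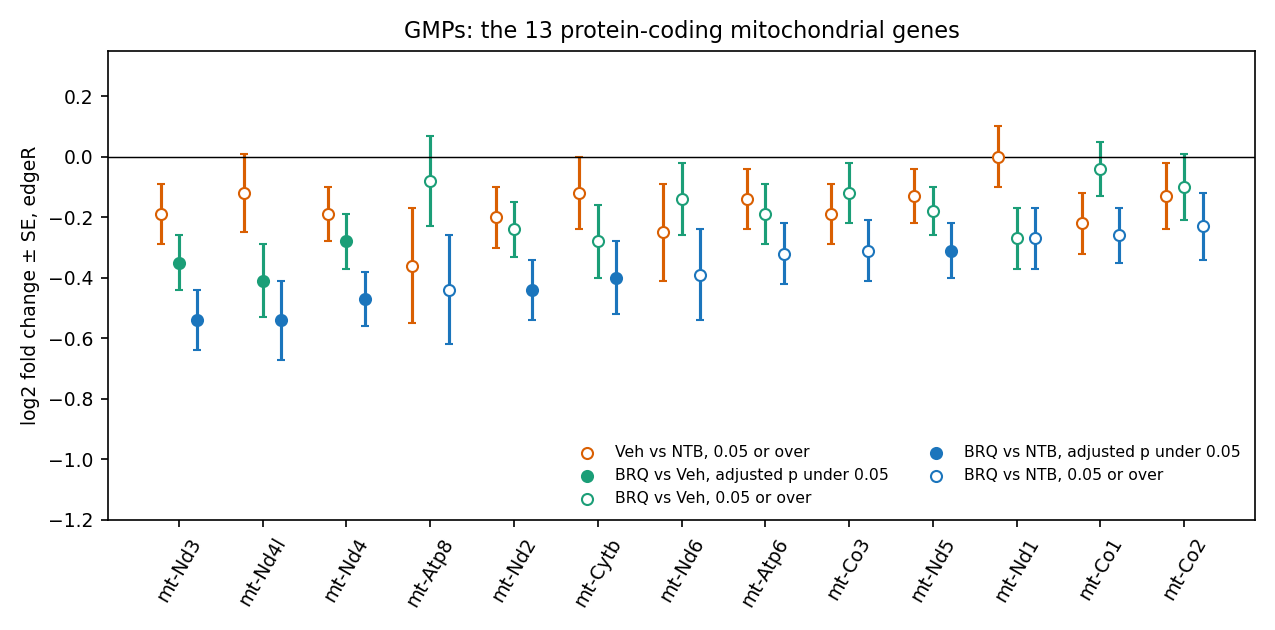
Log2 fold change ± SE in GMPs for the 13 mitochondrial genes in 3 comparisons, with filled symbols for an adjusted p under 0.05. All 13 symbols of BRQ against NTB lie below 0, and the 6 filled ones are 5 complex I genes and mt-Cytb.

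Some measures moved with these groups. The summed neutrophil marker list read 475 to 510 UMIs per 10000 in NTB-GMPs, 339 to 381 in Veh-GMPs and 272 to 385 in BRQ-GMPs, with 14 markers on the list, 8 lower and 1 higher in Veh against NTB. In BRQ against Veh 4 of the 14 were higher and 1 lower. The monocyte/MDP list was at 0.531 to 0.616 in NTB-GMPs, 0.463 to 0.62 in Veh-GMPs and 0.929 to 1.44 in BRQ-GMPs (of 9 markers 1 higher in Veh against NTB and 3 higher in BRQ against Veh). The HSC/MPP list was at 0.417 to 0.456, 0.319 to 0.357 and 0.581 to 0.664 (2 of 10 higher in BRQ against Veh). The GMP list read 391 to 437, 411 to 420 and 328 to 412 (of 8 markers 2 higher and 1 lower in Veh against NTB, and 3 lower in BRQ against Veh) and the macrophage list 2.78 to 3.16, 1.61 to 1.76 and 0.673 to 1.97 (2 of 7 lower in Veh against NTB). The erythroid list was at 0.631 to 1.27 in NTB-GMPs, 1.21 to 1.35 in Veh-GMPs and 0.804 to 1.18 in BRQ-GMPs, with 1 of 10 markers higher in Veh against NTB and 1 lower in BRQ against Veh. The basophil/mast/eosinophil list gave 3 groups with no overlap, at 1.23 to 1.78 in NTB-GMPs, 0.855 to 1.13 in Veh-GMPs and 1.85 to 2.02 in BRQ-GMPs (of 9 markers 1 higher and 2 lower in Veh against NTB, and 2 higher in BRQ against Veh). Of the dendritic cell and stromal/endothelial lists, 2 of 9 and 1 of 7 markers were higher in BRQ against Veh, and 1 of 7 B cell markers was lower in Veh against NTB. In BRQ against NTB 6 neutrophil markers were lower and 2 higher, 3 macrophage, 2 GMP and 1 basophil/mast/eosinophil marker were lower, and 2 monocyte/MDP markers and 1 HSC/MPP marker were higher. The part of these lists in the calls was not tested beyond the single clusters given here. Median UMIs per GMP were 10828.5 to 11395.5 in NTB mice, 14737 to 17926 in Veh mice and 12168.5 to 15746 in BRQ mice. GMPs also came from GMP-like clusters in different proportions, with cluster 2 giving 3 of 88, 10 of 135 and 13 of 174 NTB-GMPs, 153 of 1017, 12 of 95 and 47 of 282 Veh-GMPs and 213 of 806, 163 of 656 and 383 of 669 BRQ-GMPs. That cluster held too few NTB-GMPs for a test against NTB. A fit of its Veh 1, Veh 3 and 3 BRQ mice alone (959 GMPs, added after the data had been examined) had 4 members lower in BRQ against Veh, Cox6b2 by 0.53, Atp5g1 by 0.38, Atp5g3 by 0.37 and Cycs by 0.35, where 3.26% of 9781 genes were called lower. Blocking by pool gave 17 lower members, where 7.24% of all genes were. In cluster 0 alone, with 1986 GMPs of all 9 mice, 13 nuclear members rose in Veh against NTB, among them Cycs by 0.60, Ndufaf4 by 0.55, Uqcrq by 0.48 and Atp5g1 by 0.45, and Cox6b2 fell by 1.03, where 5.07% of all genes rose and 3.78% fell. Blocking by pool gave 30 called members there, where 12.1% of all genes were. BRQ against Veh gave 5 of 87 nuclear members lower in cluster 0 (Ndufaf4, Atp5g1, Ndufb6, Atp5g3 and Atp5d) and 0 of 13 mitochondrial ones. The nuclear share was 5.75% and that of all genes 5.9%, so nuclear members fell there about as often as genes in general. With the block 18 members were called, where 15.7% of genes were. BRQ against NTB gave 8 calls there, Cycs, Atp5md and Atp5a1 higher and Cox6b2, mt-Nd2, mt-Nd3, mt-Nd4 and mt-Nd4l lower, where 2.99% of all genes were called, and 29 with the block, where 5.9% were. In cluster 3 alone, with 622 GMPs and with NTB 1 and Veh 2 left out for too few cells, Cox6b2 was the single call in Veh against NTB, where 0.286% of all genes were called. There 1 of 86 nuclear members (Sdha, by 0.63) rose and 1 of 13 mitochondrial ones (mt-Nd3) fell in BRQ against Veh, where 3.2% of all genes were called. With the block 10 members were called, where 4.83% of genes were. In BRQ against NTB Cycs rose by 0.88 and Cox6b2 fell by 1.41 there, where 0.364% of genes were called (6 members with the block, where 1.39% were). With cells thinned to 3000 UMIs, 5 members were called in Veh against NTB, 3 in BRQ against Veh and 8 in BRQ against NTB. The shares of all genes called in the thinned fits are not given here.

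Genes of related pathways were counted from lists, against the 6.89% of all genes that rose in Veh against NTB, the 6.09% that rose and 7.46% that fell in BRQ against Veh, and the 2.57% and 3.47% in BRQ against NTB. Dhodh itself, the target of BRQ, was low and not called in GMPs, at 6.53, 8.78 and 5.45 CPM in NTB, 8.06, 6.89 and 5.96 in Veh and 7.21, 6.61 and 8.58 in BRQ mice. All groups overlapped. Of 14 tricarboxylic acid cycle genes tested, 4 rose in Veh-GMPs against NTB-GMPs (Idh3a by 0.60, Idh2 by 0.51, Suclg1 by 0.48 and Mdh2 by 0.32). Of 39 further assembly factors 6 rose (Cox16, Higd1a, Cox19, Sco2, Coa7 and Ecsit), as did Slirp among 21 genes of mitochondrial transcription and RNA handling. None of 7 other genes that feed electrons to ubiquinone, 13 genes of ubiquinone synthesis or 7 transcription factors and coactivators of respiratory genes was called. In BRQ against Veh the ubiquinone feeders held 1 gene that rose (Sqor, by 0.57) and 2 that fell (Prodh, by 0.64, and Etfb), and Coq2 and Coq7 of ubiquinone synthesis fell. In the same comparison 5 assembly factors fell (Lyrm7, Sco2, Coa7, Surf1 and Cox16) and Uqcc2 rose, Fastk and Mdh2 fell, and no coactivator was called. In BRQ against NTB, Idh2, Slirp, Coq9, Higd1a, Uqcc2 and Ecsit rose and Prodh and Etfb fell. Sqor oxidizes sulfide and Prodh proline, both passing electrons to ubiquinone.

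GMP-like cells under the Ms4a3 limit, which share clusters with the GMPs, numbered 3323 and had more called members in Veh against NTB and in BRQ against NTB. Their median UMIs per cell were 9063.5 to 9922 in NTB, 12369 to 15197.5 in Veh and 10932 to 14751 in BRQ mice, whose part in the calls was not tested. There 30 nuclear members rose and 2 fell (Cox6b2 and Cox7a2l) in Veh against NTB, where 11.6% and 9.83% of 10605 genes did, and mt-Nd4, mt-Nd5 and mt-Co1 fell. Blocking by pool gave 56 called members, 44 higher and 12 lower, where 23.8% of all genes were called, and the count without the block was 35. Against NTB, BRQ gave 22 nuclear members higher and 4 lower (Cox6b2, Atp5h, Cox7a2l and Ndufa6), where 9.48% and 9.25% of all genes were, and 10 of 13 mitochondrial genes fell. BRQ against Veh gave a single call, Ndufb6 at -0.33 (edgeR adjusted p = 0.0267), where 3.03% of all genes fell, and 10 members fell with the block, where 5.38% of all genes did. Cycs read 304.0, 222.2 and 250.8 CPM in NTB, 428.0, 479.4 and 469.3 in Veh and 376.9, 341.5 and 411.1 in BRQ mice. As in the GMPs its 3 groups did not overlap (0.84 ± 0.10 for Veh against NTB, edgeR adjusted p = 3.47e-06). Cox6b2 read 127.5, 127.2 and 114.1 CPM in NTB, 59.7, 67.9 and 54.9 in Veh and 53.7, 55.0 and 40.9 in BRQ mice. Here too no tumor-bearing mouse overlapped with an NTB mouse (-1.04 ± 0.12 and -1.30 ± 0.11, edgeR adjusted p = 6.21e-07 and 1.14e-08). The calls of Cycs and Cox6b2 against NTB held without each mouse in turn. The 35 calls in Veh against NTB became 15 without NTB 3, 21 without NTB 2 and 22 without Veh 2, and the 36 in BRQ against NTB 20 without NTB 2 or NTB 3. The call of Cox7a2l was lost without NTB 2, NTB 3 or any Veh mouse in Veh against NTB (highest edgeR adjusted p = 0.136) and without NTB 2 in BRQ against NTB (0.0646), and that of Ndufb6 in BRQ against Veh without BRQ 1, BRQ 2 or any Veh mouse (highest 0.116). In BRQ against Veh 4 members were called without BRQ 3, 2 without NTB 1 or NTB 3 and 2 by DESeq2.

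In HSC/MPP-like cells, the most immature class, nuclear members were also higher in tumor-bearing mice, but the number called depended on where the clusters were drawn. Veh 2 held 11 such cells and was left out, so 8 mice and 1152 cells entered the test. In Veh against NTB 14 of 88 tested nuclear members rose and none fell, where 1.73% and 0.692% of 10116 genes did, and in BRQ against NTB 20 rose and none fell, where 2.45% and 1.98% did. The medians were 0.30 and 0.25, and 82 and 80 of the 88 lay above 0. For 41 of the 88 every BRQ mouse was above every NTB mouse, where 11.6% of all genes were. The raised members in Veh numbered 5 of 36 complex I subunits, 1 of 8 assembly factors, 1 of 9 complex III, 3 of 13 tested complex IV and 3 of 17 ATP synthase genes, and Cycs. With the pool as a block 25 nuclear members rose and 5 mitochondrial genes fell in BRQ against NTB, where 3.22% and 2.6% of all genes did. Under 4 other clusterings of the same cells, added after the data had been examined, the calls in Veh against NTB numbered 7, 6, 2 and 14 and those in BRQ against NTB 15, 1, 2 and 23, with medians of the nuclear members from 0.22 to 0.27 and from 0.15 to 0.24. Earlier clusterings of these cells had given still other counts. BRQ against Veh gave 0 called members (10 nuclear at an unadjusted p under 0.05 in edgeR, and 0 called by DESeq2), where 0.0198% of all genes were called. No mitochondrial member was called by edgeR or DESeq2 without the block in any of the 3 comparisons, with 0, 0 and 6 at an unadjusted p under 0.05 for Veh against NTB, BRQ against Veh and BRQ against NTB and medians of -0.10, -0.04 and -0.16.

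The genes named here for HSC/MPP-like cells were chosen after their values were seen. Uqcrq stood at 295.2, 302.7 and 263.6 CPM in NTB mice, 424.3 and 484.2 in Veh 1 and Veh 3, and 465.7, 458.8 and 442.3 in BRQ mice. Every tumor-bearing mouse was above every NTB mouse (0.66 ± 0.11 and 0.68 ± 0.10 against NTB, edgeR adjusted p = 0.000904 and 9.7e-05), and both calls held without each mouse in turn (highest adjusted p = 0.0212 and 0.00512). Atp5g1 read 261.5, 292.5 and 230.1 CPM in NTB, 422.1 and 356.3 in Veh and 415.6, 369.7 and 306.6 in BRQ mice. Its BRQ mice did not overlap with NTB (0.61 ± 0.13 for Veh and 0.49 ± 0.12 for BRQ against NTB, edgeR adjusted p = 0.00911 and 0.0133), but the Veh call was lost without NTB 3 or Veh 1 and the BRQ call without NTB 3, BRQ 1 or BRQ 2. In GMPs its BRQ and NTB mice overlapped, and whether the BRQ against NTB change differed between the classes was not tested. Cycs gave 151.3, 139.4 and 132.8 CPM in NTB, 202.3 and 195.4 in Veh and 231.3, 192.9 and 185.3 in BRQ mice, again with NTB apart (0.52 ± 0.13 and 0.55 ± 0.11, edgeR adjusted p = 0.0257 and 0.00408). Its Veh call was lost without NTB 2, NTB 3, Veh 1 or Veh 3 and with the pool as a block (adjusted p = 0.0524), and its BRQ call without NTB 3 (adjusted p = 0.0699). Cox6b2 did not have its course of the GMPs, at 63.5, 77.1 and 95.2 CPM in NTB, 86.9 and 89.9 in Veh and 60.1, 79.4 and 71.3 in BRQ mice (0.09 ± 0.16 for Veh against NTB). The NTB mice overlapped with both other groups, and both Veh mice lay above all BRQ mice. Ndufa5 rose by 0.65 in Veh (edgeR adjusted p = 0.00596), whereas Sdhb at 0.48, Sdhd at 0.36, Atp5g2 at 0.07 and Sdha at 0.02 were not called.

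In these cells the summed HSC/MPP markers were 18.6 to 20.5 UMIs per 10000 in NTB mice, 13.8 to 14.4 in Veh and 14.4 to 15.2 in BRQ mice. The summed GMP markers were 19.9 to 65.8 in NTB, 58.3 to 59.7 in Veh and 58.1 to 69.3 in BRQ mice. Of the 10 HSC/MPP markers, 3 were lower in Veh and 4 in BRQ against NTB, and of 8 GMP markers 2 and 3 were higher. The erythroid/MEP list was at 2.74 to 3.22 in NTB mice, 1.9 to 2.02 in Veh and 1.73 to 2.11 in BRQ mice, with 1 of 10 markers lower in each against NTB. Of 9 monocyte/MDP markers 2 were higher in Veh against NTB, of 14 neutrophil markers 1 was higher in Veh against NTB and 1 lower in BRQ against Veh, and 1 marker each of the dendritic cell, macrophage and megakaryocyte lists was lower in BRQ against NTB. Median UMIs per cell were 6881 to 8069 in NTB mice, 9347.5 and 9487.5 in Veh and 7882 to 9951 in BRQ mice. The part of these differences in the 14 and 20 calls was not tested. The 14 became 1 without NTB 3 or Veh 1, and 9 without Veh 3 or BRQ 2. The 20 became 2 without NTB 3, 4 without BRQ 1, 12 without BRQ 2 and 13 without NTB 2.

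Monocyte/MDP-like cells (1764 cells, all 9 mice) had 5 raised members in Veh against NTB, where 2.13% of 9529 genes rose: Ndufaf1 by 1.03, Cycs by 0.66, Uqcrq by 0.45, Atp5g3 by 0.39 and Atp5md by 0.36. Cycs read 336.9, 269.0 and 287.9 CPM in NTB, 482.8, 475.5 and 440.3 in Veh and 408.3, 351.5 and 440.7 in BRQ mice. Both tumor-bearing groups lay above NTB, and Veh 3 lay just below BRQ 3 (0.66 for Veh against NTB, edgeR adjusted p = 0.00246), and the Veh call held without each mouse in turn (highest adjusted p = 0.0389). The 5 calls became 1 without NTB 2, NTB 3 or Veh 2, 2 without Veh 1, 3 without BRQ 1 and 9 without Veh 3. Median UMIs per cell were 13014.5 to 16709 in NTB, 20354 to 23960 in Veh and 14996 to 18441 in BRQ mice, so Veh lay above both others. The HSC/MPP list was at 1.82 to 2.24 UMIs per 10000 in NTB, 1.58 to 1.81 in Veh and 2.2 to 2.36 in BRQ mice (of 10 markers 1 lower in Veh against NTB and 1 higher in BRQ against Veh). Of 8 GMP markers 1 was higher in each comparison with NTB and 1 lower in BRQ against Veh, and of 9 dendritic cell markers 1 was lower in Veh and 2 in BRQ against NTB. In BRQ against Veh 1 basophil/mast/eosinophil marker was higher and 1 erythroid/MEP marker lower. In BRQ against NTB 1 basophil/mast/eosinophil and 1 neutrophil marker were higher and 1 B cell marker lower. The monocyte/MDP list itself was at 18.2 to 26.0 in NTB, 15.9 to 21.1 in Veh and 21.2 to 23.2 in BRQ mice. The part of depth and markers in the calls was not tested. With the pool as a block 20 members were called, where 5.32% of all genes were. BRQ against NTB gave Cycs (0.44) and Atp5md (0.38) higher and Cox6b2 and mt-Nd3 (-0.40) lower, where 1.25% and 1.66% of genes rose and fell, and 20 members with the block, where 5.18% of genes were called. Those 4 calls became 0 without BRQ 3, NTB 2 or NTB 3, 2 without BRQ 1, 7 without Veh 3 and 7 by DESeq2. Against Veh, Cox6b2 fell by 0.48 ± 0.13 (edgeR adjusted p = 0.0433), where 2.15% of genes fell, and 6 members fell with the block, where 4.46% of genes did. Cox6b2 stood at 62.2, 54.3 and 55.7 CPM in NTB, 59.1, 40.8 and 45.8 in Veh and 39.7, 40.7 and 31.0 in BRQ mice. The BRQ mice, Veh 2 and Veh 3 lay below all NTB mice (-0.61 ± 0.15 for BRQ against NTB, edgeR adjusted p = 0.0227), and the BRQ call was lost without BRQ 3 or any NTB mouse (highest adjusted p = 0.113). The call against Veh was lost without NTB 1, NTB 2, Veh 1 or any BRQ mouse (highest edgeR adjusted p = 0.555) and by DESeq2, and 2 members were called without NTB 3 or Veh 3. Basophil/mast/eosinophil-like cells (266 cells in 7 mice) had 0 called members by edgeR in each comparison, where 0.0% of 6082 genes were called, and 5, 2 and 6 nuclear members had an unadjusted p under 0.05 for Veh against NTB, BRQ against Veh and BRQ against NTB. Erythroid/MEP-like cells reached 20 cells in 6 mice, of which 1 was a Veh mouse, and were not tested.

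**Figure D5:**
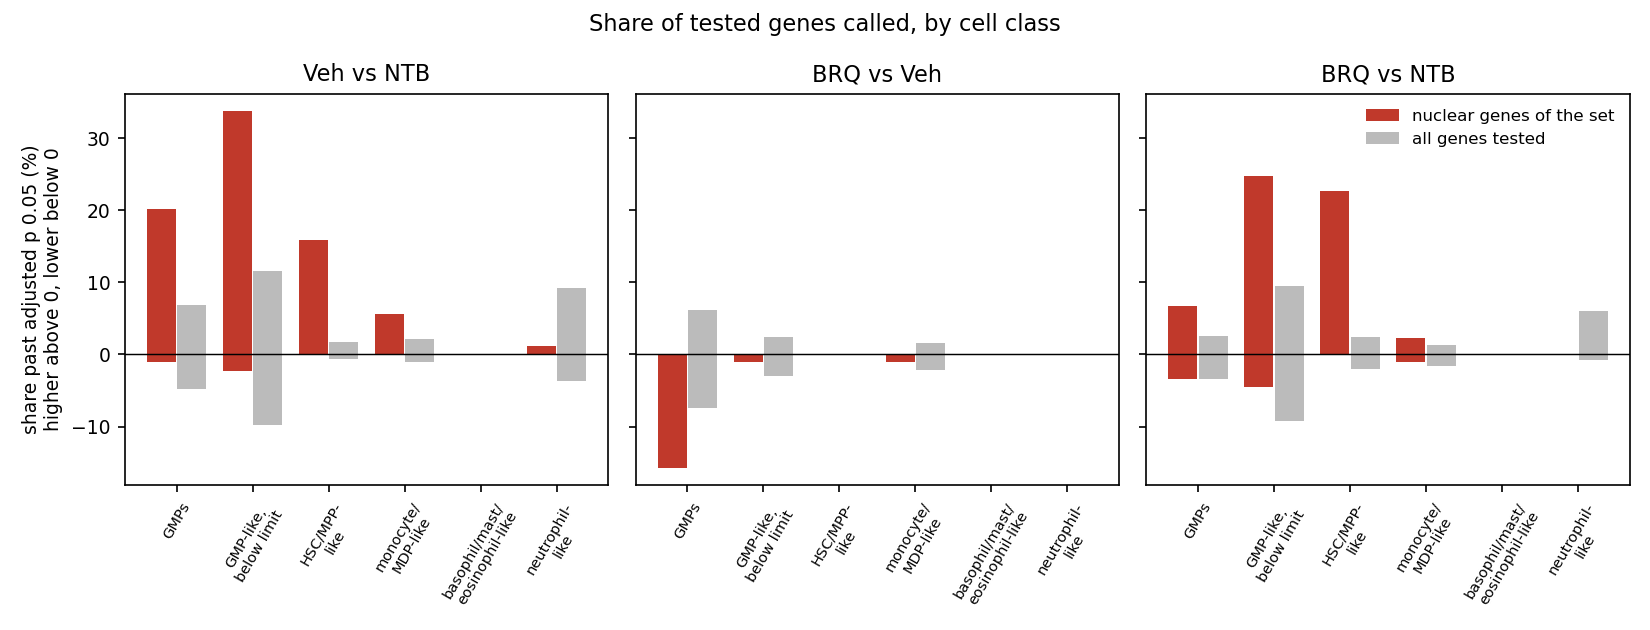
Share (%) of tested nuclear members (red) and of all genes tested (grey) called higher (above 0) and lower (below 0) in 6 cell classes and 3 comparisons. The red bars reach highest in Veh against NTB in GMP-like cells below the limit, where 30 members rose, and lowest in BRQ against Veh in GMPs, where 14 of 89 fell.

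In neutrophil-like cells 1 of 86 tested nuclear members was called in Veh against NTB, where 9.25% of 8700 genes rose and 3.71% fell. That gene was Ndufa7, a subunit of complex I, at 98.0, 106.1 and 89.5 CPM in NTB, 129.3, 152.2 and 145.9 in Veh and 122.2, 123.4 and 127.5 in BRQ mice. The 3 groups did not overlap, with Veh highest (0.53 ± 0.15 for Veh against NTB, edgeR adjusted p = 0.0407). The call was lost without BRQ 1, BRQ 2, Veh 2, Veh 3 or any NTB mouse (0.0631 to 0.179), and the count of called members became 12 without Veh 1 and 2 without BRQ 3. Blocking by pool gave 1 raised and 4 fallen members, where 13.7% and 8.52% of all genes did. Cox6b2 read 75.5, 75.4 and 64.0 CPM in NTB, 45, 32.4 and 15.2 in Veh and 39.8, 49.9 and 18.9 in BRQ mice. All tumor-bearing mice were below NTB, but the Veh and BRQ mice spread widely, and the gene was not called (-1.16 ± 0.37 for Veh against NTB, edgeR adjusted p = 0.0575) except with the block (adjusted p = 0.00357). In BRQ against Veh and BRQ against NTB edgeR and DESeq2 called 0 members, with 2 nuclear members in each and 3 and 1 mitochondrial ones at an unadjusted p under 0.05 in edgeR, where 0.046% and 6.75% of all genes were called. With the block 1 member fell in BRQ against NTB, where 3.8% of all genes did. On simulated counts for BRQ against Veh in this class, the test recovered 3.2% of 95 genes changed by 1 on the log2 scale. The 0 calls in BRQ against Veh therefore do not show unchanged members. Other clusterings gave 9, 2, 8 and 6 called members in Veh against NTB. Median UMIs per cell were 6086 to 7594 in NTB, 1618.5 to 2308 in Veh and 2650.5 to 4423.5 in BRQ mice, with no overlap. The summed neutrophil markers were 3730 to 3800 UMIs per 10000 in NTB, 2690 to 3180 in Veh and 2460 to 3060 in BRQ mice (of 14 markers 4 higher and 3 lower in Veh against NTB). The HSC/MPP list was at 0.336 to 0.485, 1.27 to 3.35 and 0.911 to 2.66, the monocyte/MDP list at 0.205 to 0.409, 0.571 to 1.44 and 0.439 to 1.3, and the basophil/mast/eosinophil list at 0.944 to 1.29, 2.0 to 4.36 and 2.2 to 4.12, in the same order. With depth and those lists all apart between NTB and the tumor-bearing groups, their part in the counts was not tested.

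The 4 neutrophil-like clusters held unequal parts of the groups, with cluster 5 giving 57, 199 and 492 NTB cells but 53, 11 and 18 Veh cells, and cluster 1 giving 9, 38 and 48 NTB cells but 292, 108 and 396 Veh cells. In cluster 1, with NTB 1 left out for its 9 cells, 7 mitochondrial genes fell in Veh against NTB, where 1.04% of 4792 genes fell, and 6 in BRQ against NTB, where 0.146% did. There mt-Nd2, chosen after its values were seen, had 1036.3 and 995.5 CPM in NTB 2 and NTB 3, 324.0, 581.3 and 604.9 in Veh and 353.6, 445.9 and 557.9 in BRQ mice. No tumor-bearing mouse overlapped with those NTB mice (-1.02 ± 0.23 for Veh and -1.15 ± 0.23 for BRQ against NTB, edgeR adjusted p = 0.0126 and 0.0185). In cluster 8, with NTB 1 and Veh 2 left out, 0 members were called by edgeR in Veh against NTB (14 nuclear at an unadjusted p under 0.05), where 2.22% of 4052 genes were called. BRQ against NTB gave 2 of 77 nuclear members higher there (2.6%), Uqcrb (0.75) and Ndufb11 (0.64), where 4.96% of genes rose. With the block 5 members were called, where 6.79% of genes were. In Veh against NTB all 13 mitochondrial genes lay below 0 in cluster 1 (median -0.86) but above 0 in the whole class (median 0.17, 0 called by edgeR and 0 at an unadjusted p under 0.05), and 9 of 12 tested lay above 0 in cluster 8 (median 0.28). Over the whole class the mitochondrial genes took 2.46%, 1.80% and 1.93% of UMIs in NTB and 2.10%, 2.70% and 2.6% in Veh mice, so those groups overlapped.

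Clusters 5 and 7 reached 20 cells in Veh 1 alone, so there NTB was compared with BRQ 1 and BRQ 2 only, in fits of those 5 mice added after the data had been examined. In cluster 5, with 905 cells, 8 nuclear members rose, where 2.61% of 6134 genes did: Ndufa5 by 0.67, Atp5d by 0.66, Ndufa1 and Ndufa11 by 0.60, Cox6c by 0.58, Cox7a2 by 0.53, Cox8a by 0.50 and Cox7c by 0.48. Blocking by pool gave 8 raised members there, where again 2.61% of genes rose, and mt-Nd3 and mt-Nd4 lower, where 0.619% of genes were. In cluster 7, with 621 cells, 12 nuclear members rose and Cox6b2 fell by 0.79, where 1.81% and 0.516% of 6590 genes did. Cycs stood there at 104.7, 95.9 and 109.3 CPM in NTB and 197.0 and 178.3 in the BRQ mice. Those groups did not overlap (0.85 ± 0.14, edgeR adjusted p = 0.000449), whereas over the whole class no member was called in this comparison. Ndufa1 at 0.71, Ndufa4 at 0.70 and Cox7b at 0.61 followed, and Cox6b2 read 114.4, 126.4 and 112.8 CPM in NTB and 61.7 and 73.9 in the BRQ mice (edgeR adjusted p = 0.00593). No mitochondrial gene was called in either cluster without the block (2 and 4 at an unadjusted p under 0.05 in edgeR). DESeq2 and leaving out mice were not run in these fits.

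Whether a member's change differed between classes was tested directly in a fit over both classes with the mouse as a block. For GMPs minus neutrophil-like cells, the Veh against NTB change differed for 4 of 88 tested nuclear members and 0 of 13 mitochondrial ones. Over all 9808 genes 8.7% differed, a larger share. The count was 0 without any of the NTB mice, Veh 2 or Veh 3, 2 without BRQ 1, 11 without BRQ 3 and 34 without Veh 1, and 31, 30 and 22 under 3 other clusterings. Cycs had a log2 fold change of 0.64 in GMPs and -0.18 in neutrophil-like cells, a difference of 0.78 ± 0.21 (edgeR adjusted p = 0.0236). For BRQ against Veh 0 members differed by edgeR or DESeq2 (14 nuclear at an unadjusted p under 0.05, and 6 members called without Veh 1 and 2 without BRQ 3), where 0.0612% of genes did. On simulated counts this edgeR test recovered 59.1% of 93 genes changed by 1 on the log2 scale and 12.6% of 95 changed by 0.5. Differences of that smaller size would mostly be missed, so the 0 does not show equal changes. Between HSC/MPP-like cells and GMPs the Veh against NTB change differed for Cox6b2 and Atp5h among 89 tested nuclear members, where 0.761% of 10909 genes did. The BRQ against Veh change differed for mt-Nd4l among 13 mitochondrial members and for 0 of 89 nuclear ones, where 2.8% of genes did. Cox6b2 gave 0.09 in HSC/MPP-like cells and -1.04 in GMPs, a difference of 1.06 ± 0.19 (edgeR adjusted p = 0.000769), which was called without each mouse other than Veh 1 (adjusted p = 0.113). The Atp5h call was lost without NTB 3, Veh 1 or Veh 3 (highest adjusted p = 0.167) and that of mt-Nd4l without Veh 1 or any BRQ mouse (highest 0.775).

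Tissue isoforms of complex IV stood at unequal levels across classes, which are described with no test between classes. GMPs held the common isoforms, with a median of 13.2 UMIs per 10000 for Cox4i1 against 0.00193 for Cox4i2, 4.71 for Cox6a1 against 0 for Cox6a2, 7.27 for Cox6b1 against 0.57 for Cox6b2, and 10.7 for Cox7a2 against 0.0361 for Cox7a1. These are levels per UMI and not per length. Cox6a2, known as the heart and muscle isoform, had a UMI in 60.2% of the 93 assigned cells of cluster 19 (95% exact binomial interval 49.5% to 70.2%), in 6.06% of 33 T/NK cell-like cells and in at most 2.03% of cells in any other cluster. In 95 B cell-like cells, 0 had a Cox6a2 UMI, with an exact upper limit of 3.81%, at a median depth of 11884 UMIs against 9222 in cluster 19. That cluster was led by Dntt and Il7r, genes of lymphoid progenitors, by Cox6a2 itself and by Flt3, Siglech and Tcf4, genes of dendritic cells and their progenitors, and is left unnamed. The clusters scored as dendritic cells in 3 of 4 other clusterings held 0 of its cells. Cox6b2 was highest in erythroid/MEP-like cells at 2.37 UMIs per 10000 in the median mouse (1.84 to 2.91 over 6 mice), against 0.777 in HSC/MPP-like cells, 0.57 in GMPs, 0.461 in monocyte/MDP-like cells and 0.43 in neutrophil-like cells. In erythroid-like cluster 9 it had a UMI in 87.5% of 295 cells (83.1% to 91.0%), in GMP cluster 0 in 47.3% and in B cell-like cells in 6.32%, at 15686, 11446 and 11884 median UMIs. Cox4i2, the isoform known from lung, had a UMI in 6.64% of 1717 cells of a monocyte/MDP-like cluster and 4.63% of 1167 cells of the HSC/MPP-like cluster, with median depths of 17712 and 8451 UMIs, and in 0.28% of 3217 cells of GMP cluster 0. Its share in B cell-like cells was 3.16% with an interval of 0.656% to 8.95%. The Cox4i2 shares of the monocyte/MDP-like and HSC/MPP-like clusters lay within that interval and are not distinguished from that level. That of GMP cluster 0 lay below the interval. Intervals and zero limits cover counting error only.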

How the data were processed

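Bone marrow of 9 mice, in 3 pools of 3, was measured by 10x Genomics 3′ single-cell RNA-seq with hashtag antibodies. The deposited values are raw UMI counts per gene and per hashtag, which the authors made with Cell Ranger 6.0.0 on mm10, per the labels. Cells with at most 15% mitochondrial UMIs and 500 to 7500 detected genes were kept, a reading of the study's limits that an alternative replaces by UMIs. Mice were assigned with HTODemux (Seurat 5.3.0) and hashtag doublets and negatives were dropped. Scrublet marked 3.71% to 5.60% of cells, which were kept except in an alternative, and clusters 10 and 16, mostly of such cells, were left unnamed. Cells were clustered with scanpy 1.11.5 and leidenalg 0.10.2 (Leiden, resolution 0.8, 2000 variable genes, 30 components, shared-neighbour graph of 20 neighbours) and classes were named from marker lists. Earlier clusterings could not be repeated exactly and were replaced by this one, and 4 further clusterings served as alternatives, all after the data had been examined. GMPs are cells whose natural log of 1 plus Ms4a3 UMIs per 10000 exceeded 3, taken out of the other classes first.

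UMIs were summed per mouse and class (at least 20 cells, at least 2 mice per group) and tested with edgeR 4.0.16 (quasi-likelihood, TMM, filterByExpr, all mice, no block), with Benjamini-Hochberg adjustment over all genes. DESeq2 1.42.0 served as an alternative. Summed UMIs in GMPs ran from 998154 to 16074010 per mouse. The labels put 1 mouse of each group in each pool, so the pool number pairs the mice. Deviations from group means correlated between mice of the same pool with a median r of 0.085 in GMPs (9 pairs, lowest -0.016) and -0.046 for 18 pairs of other pools, and of 0.13 (lowest -0.106) against -0.091 in neutrophil-like cells.

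The members and gene lists were chosen with earlier results of these data known. Genes were named by a rule: the 13 mitochondrial members, the called nuclear members with the 6 largest and 6 smallest log2 fold changes per comparison in GMPs (4 and 4 in neutrophil-like cells), the isoform sets of complex IV and of the ATP synthase c subunit, the 4 complex II genes, Cyc1, Cycs and Dhodh. Atp5if1, also on it, has no value here. Other members named beside a count complete that count and, like the genes given for other classes, were chosen after their values were seen. On simulated counts for BRQ against Veh in GMPs (10144 genes), the test recovered 88.8% of 98 genes changed by 1 on the log2 scale and 64.9% of 97 changed by 0.5. In neutrophil-like cells (8487 genes) it recovered 3.2% of 95 and 0% of 98 genes. Analyses used Python 3.11.15 and R 4.3.3.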

Additional observations from a re-analysis of the deposited data

Results flagged for a closer look

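These results were picked out because a test of the difference found that a change differed between 2 cell classes. In GMPs minus neutrophil-like cells the change in Veh against NTB differed for 4 of 88 tested nuclear members and 0 of 13 mitochondrial ones (edgeR quasi-likelihood with Benjamini-Hochberg adjustment, mouse as a block). Over all 9808 genes 8.7% differed, so members differed less often than genes in general. Differences on the log2 scale were 0.78 for Cycs, 0.67 for Atp5g3 (0.38 in GMPs and -0.33 in neutrophil-like cells) and 0.65 for Ndufab1 (0.38 and -0.31). Ndufa7 went the other way at -0.62 ± 0.18 (adjusted p = 0.0369), with log2 fold changes of -0.04 in GMPs and 0.53 in neutrophil-like cells. Ndufab1 and Cycs have pseudogene copies. No member was called without NTB 1, NTB 2, NTB 3, Veh 2 or Veh 3.

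In HSC/MPP-like cells minus GMPs the same change differed for 2 of 89 tested nuclear members, where 0.761% of 10909 genes did, by 1.06 for Cox6b2 and by 0.52 for Atp5h (0.41 in HSC/MPP-like cells and -0.15 in GMPs). The change in BRQ against Veh differed for mt-Nd4l, 1 of 13 mitochondrial members, and for 0 of 89 nuclear ones, where 2.8% of genes did. Its difference was 0.43 (0.08 and -0.41), and the gene overlaps mt-Nd4. The mouse with 11 HSC/MPP-like cells was left out of both.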

How the results depend on the processing

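Numbers of called members (edgeR quasi-likelihood, adjusted p under 0.05) depended on the processing, and the causes were not tested except where the setting itself leaves fewer cells. Apart from the replicate block and the single clusters, the shares of all genes called under these settings are not given here. Those counts therefore cannot be read against genes in general. For GMPs, Veh against NTB (19 called) became 57 with GMP-like clusters in place of the Ms4a3 limit, 37 with that limit at 2.5, 5 with cells thinned to 3000 UMIs, 45 with the replicate block, 1 within cluster 3 and 10 to 29 with 1 mouse left out. BRQ against Veh (17) became 7, 11, 3, 38, 2 and 4 to 19 in the same order, 5 and 4 within clusters 0 and 2, 7 without TMM, 11 without the filter on low counts and 2 where the leading tag had to exceed the next by 1. BRQ against NTB (15) became 32, 29, 8, 30, 2 and 5 to 15 in that order, 8 in cluster 0, 9 without mitochondrial genes and 38 without TMM. Leaving out the mitochondrial genes takes away the 6 mitochondrial calls by design, and 9 of the 15 were nuclear. Reading the limits of 500 and 7500 as UMIs left 433 of 3922 GMPs and 0 calls in all 3. Other clusterings (Leiden resolution 0.4, 1.2, seed 2 and an unweighted neighbour graph, added after the data had been examined) gave 9, 2, 8 and 6 calls for neutrophil-like cells in Veh against NTB (1 called), which also became 2 with DESeq2, 0 thinned, 32 with the limits as UMIs, 5 with the replicate block, 2 and 5 with tag gaps of 0.5 and 1, 7 and 0 within clusters 1 and 8, and 0 to 12 with 1 mouse left out. BRQ against NTB there (0) became 19 with the limits as UMIs, 1 without the filter, with the replicate block or with a tag gap of 1, and 6, 2, 8 and 13 within clusters 1, 8, 5 and 7. The difference between GMPs and neutrophil-like cells in Veh against NTB (4) became 18 with GMP-like clusters, 25 with the limit at 2.5, 31, 30 and 22 at resolution 0.4, seed 2 and the unweighted graph, 0 thinned, 7 and 9 at mitochondrial limits of 10% and 30%, 26 without the filter, 7 without ribosomal genes, 14 with a tag gap of 1 and 0 to 34 with 1 mouse left out. In BRQ against Veh (0) it became 3 under each of those 3 clusterings, 1 with a tag gap of 1 and 0 to 6 with 1 mouse left out. HSC/MPP-like cells in Veh against NTB (14) had 7, 6 and 2 calls at resolution 0.4, 1.2 and seed 2, 0 with the limits as UMIs, 5 and 0 with tag gaps of 0.5 and 1, and 1 to 19 with 1 mouse left out. In BRQ against NTB (20) they had 1 and 2 at resolution 1.2 and seed 2, 13 with DESeq2, 0 with the limits as UMIs or a tag gap of 1, and 2 to 21 with 1 mouse left out. GMP-like cells under the limit had 56 calls with the replicate block and 15 to 45 with 1 mouse left out in Veh against NTB (35), 10, 2, 3 and 2 with the block, resolution 1.2, seed 2 and DESeq2 and 0 to 4 with 1 mouse left out in BRQ against Veh (1), and 20 to 38 with 1 mouse left out in BRQ against NTB (36). Monocyte/MDP-like cells had 20, 6 and 20 calls with the replicate block (5, 1 and 4 without), 3 at seed 2 in Veh against NTB, 2, 0, 3 and 2 under the other clusterings in BRQ against Veh, 7 at resolution 1.2 or with DESeq2 in BRQ against NTB, 0 with DESeq2 in BRQ against Veh, and 1 to 9, 0 to 2 and 0 to 7 with 1 mouse left out. The difference between HSC/MPP-like cells and GMPs in BRQ against Veh (1) became 0 at resolution 1.2 or without TMM, 3 with the unweighted graph and 0 to 1 with 1 mouse left out, and in Veh against NTB (2) 0 to 3. Leaving out mice was not run within single clusters. At a 30% mitochondrial limit the mitochondrial share was 3.88% in NTB-GMPs against 3.80%, and 3.00% and 2.54% in Veh and BRQ neutrophil-like cells against 2.46% and 2.17%. Medians that changed sign were those of BRQ against Veh in GMPs (nuclear 0.06 with the limits as UMIs and 0.05 without TMM, mitochondrial 0.01 with the limits as UMIs), BRQ against NTB in GMPs (nuclear -0.01 without NTB 3, and up to 0.12 with 1 mouse left out), and BRQ against Veh in HSC/MPP-like cells (nuclear 0.04 with the limits as UMIs and 0.01 with a tag gap of 0.5, mitochondrial 0.14 with a tag gap of 1). Among single genes mt-Nd4 (0.05) and Atp5g1 (0.04) changed sign in BRQ-GMPs against Veh-GMPs with the limits as UMIs, and no other named gene did. Thinning kept 3848 of 3922 GMPs and 2356 of 3966 neutrophil-like cells. Named genes kept their call in 191 of 214 alternatives for Veh against NTB in GMPs, 154 of 212 for BRQ against Veh (2 changed sign), 276 of 352 for BRQ against NTB and 16 of 26 for Veh against NTB in neutrophil-like cells.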
